A study of Homo sapiens with 12 samples.

Results

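The antiapoptotic BCL2 family was described here through its 5 classical members, BCL2, BCL2L1 (BCL-XL), MCL1, BCL2A1 (BFL-1, also called A1) and BCL2L2 (BCL-W), followed across all 12 libraries of a study of chidamide in lymphoma cells. The genes were taken by symbol from a table of 26364 genes and by no rule on their measured values, although earlier results of these data were known. All 5 were found, and all 5 were among the 15087 genes that passed the filter on low counts. Chidamide is a benzamide inhibitor of class I histone deacetylases. The groups were cells labelled JeKo-1 given 4 µM chidamide for 12 h, cells labelled JeKo-1 given vehicle, Granta-519 cells given 4 µM chidamide for 12 h, and Granta-519 cells given vehicle, with 3 libraries of polyadenylated RNA in each. Both are established lymphoma lines grown in RPMI1640 with serum, so each group models the response of a line and not of a tumour. The series title speaks of double expressor lymphoma, in which both MYC and BCL2 are abundant, and the comparisons address how the drug acts on such transcripts.

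Proteins of this family sit mainly on the outer mitochondrial membrane, where a groove on their surface binds the BH3 helix of proapoptotic relatives. By holding BAX and BAK1 and the BH3-only activators in check they prevent permeabilisation of the membrane, release of cytochrome c and activation of caspases. Lymphomas often depend on 1 or a few of them, and BH3-mimetic drugs such as venetoclax, which targets BCL2, occupy the same groove.

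Library totals ran from 12873642 to 16592694 counts, and levels are given as CPM, the count relative to the library total after TMM scaling. Nothing in the labels ties the replicates to separate cultures, so p-values cover the spread between libraries only, and that spread may be technical. Of the genes that mark mantle cell lymphoma, SOX11 had 0 counts in all 6 libraries labelled JeKo-1. CCND1 had 18, 11 and 15 counts in their chidamide libraries, against 2, 2 and 1 in their vehicle libraries. In Granta-519, CCND1 averaged 1746 CPM in chidamide and 2113 CPM in vehicle, and SOX11 averaged 133 CPM and 156 CPM. JeKo-1 cells are known to express CCND1 and SOX11, and these libraries are therefore called by their label throughout. B-cell markers were high in every group. CD79A averaged 503 CPM with chidamide and 755 CPM with vehicle under the JeKo-1 label, and 505 CPM and 613 CPM in Granta-519. No RNA of known amount was named as added, and a change of total RNA per cell would not be visible. In such bulk samples fewer cells of a type and less RNA per cell cannot be told apart.

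Chidamide was followed by higher transcript levels of most of the family, and more so under the JeKo-1 label. BCL2, BCL2L1, MCL1 and BCL2A1 rose there, by 0.30 (MCL1) to 1.31 (BCL2A1) on the log2 scale, and BCL2L2 did not pass the test. In Granta-519 BCL2, MCL1 and BCL2A1 rose, by 0.15 (MCL1) to 0.58 (BCL2A1) on the log2 scale, whereas BCL2L1 and BCL2L2 fell. BCL2 itself stood 25.3-fold higher in Granta-519 than under the JeKo-1 label in vehicle, the widest gap between the lines in the family.

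**Figure D1:**
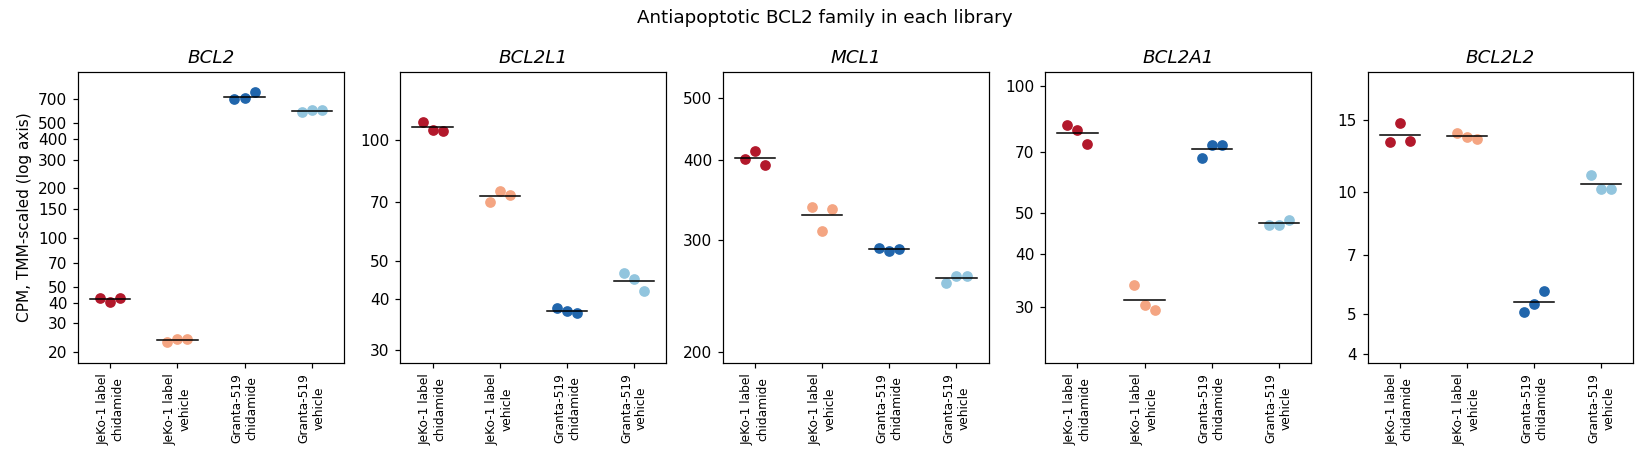
Level of each member in every library, in CPM scaled by TMM on a log axis whose range differs between panels. Points are the 3 libraries of each group and lines their means; BCL2 lies between 22.8 and 42.8 CPM in all libraries labelled JeKo-1 and between 584 and 774 CPM in all Granta-519 libraries.

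BCL2 is the founding member, first found at the t(14;18) breakpoint of follicular lymphoma. It had 42.8, 40.5 and 42.8 CPM in chidamide libraries labelled JeKo-1, against 22.8, 23.9 and 23.8 CPM in their vehicle libraries. In Granta-519 it had 699, 714 and 774 CPM with chidamide, against 584, 599 and 602 CPM with vehicle. Within each line every chidamide library lay above every vehicle library, and the 2 lines did not overlap. The log2 change with chidamide was 0.84 ± 0.06 (SE) under the JeKo-1 label and 0.29 ± 0.04 in Granta-519. Both passed edgeR's quasi-likelihood test with Benjamini-Hochberg adjustment over all tested genes (adjusted p = 1.03e-17 and 2.11e-09). The JeKo-1 label held the larger relative change at the far lower level: the gain was 1.79-fold on a mean of 23.5 CPM, and 1.23-fold on a mean of 595 CPM in Granta-519.

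BCL2A1, a short-lived member known as a target of NF-kB in B cells and also made by myeloid cells, rose furthest of the 5 in both lines. Its levels were 81.1, 78.7 and 73.0 CPM in chidamide libraries labelled JeKo-1, against 33.7, 30.3 and 29.5 CPM in vehicle. In Granta-519 they were 67.5, 72.6 and 72.6 CPM with chidamide, against 47.0, 46.8 and 48.2 CPM with vehicle. No chidamide library overlapped a vehicle library of either line. The log2 change was 1.31 ± 0.07 under the JeKo-1 label (edgeR quasi-likelihood, Benjamini-Hochberg adjusted p = 1.32e-24) and 0.58 ± 0.06 in Granta-519 (4.36e-12).

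Markers of myeloid cells moved in the same direction as BCL2A1. The summed level of 9 such markers was 40.7 to 42.5 CPM in chidamide libraries labelled JeKo-1, against 2.40 to 4.10 CPM in vehicle. It was 124 to 135 CPM in Granta-519 with chidamide, against 49.2 to 49.8 CPM with vehicle. Only 5 of the 9 passed the filter on low counts, and a gene can pass it through the group where it is high. Of these 5, 4 rose in each line, a count that the filter can favour and that is a description only. Over all tested genes, 35.3% were called higher under the JeKo-1 label and 39.6% in Granta-519. MPO and CST3 were at 0 in all chidamide libraries labelled JeKo-1, and MPO and S100A8 in those of Granta-519. The sum of 9 T and natural killer cell markers was 6.11 to 8.50 CPM with chidamide under the JeKo-1 label, against 2.73 to 4.72 CPM with vehicle. In Granta-519 it was 3.73 to 4.93 CPM with chidamide, against 0.799 to 1.20 CPM with vehicle. Erythroid and megakaryocytic markers summed to at most 1.34 CPM in any library. Epithelial and stromal markers, most of whose sum was VIM and COL1A1, lay at 60.9 to 65.1 CPM with chidamide under the JeKo-1 label, against 50.7 to 53.2 CPM with vehicle. In Granta-519 they lay at 481 to 496 CPM with chidamide, against 560 to 587 CPM with vehicle. The part of other cells in the change of BCL2A1 was not tested.

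MCL1, whose protein turns over within hours and which B-cell survival requires, changed least among the members that passed in both lines. It had 402, 413 and 393 CPM in chidamide libraries labelled JeKo-1, against 338, 310 and 335 CPM in vehicle. Granta-519 had 291, 288 and 290 CPM with chidamide, against 256, 263 and 263 CPM with vehicle. The groups within a line did not overlap, although the steps were small: the log2 change was 0.30 ± 0.04 (edgeR quasi-likelihood, Benjamini-Hochberg adjusted p = 3.01e-09) and 0.15 ± 0.04 (0.000741). With no filter on low counts the Granta-519 change was 0.04 (adjusted p = 0.430), and the same genes shifted by -0.11 at the median under that setting.

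BCL2L1 moved in opposite directions. This gene encodes BCL-XL, which has a broad range of BH3 partners. Its levels were 111, 106 and 105 CPM in chidamide libraries labelled JeKo-1, against 70.1, 74.6 and 72.9 CPM in vehicle. They were 38.1, 37.3 and 37.1 CPM in Granta-519 with chidamide, against 46.5, 44.9 and 42.1 CPM with vehicle. All chidamide libraries were thus above vehicle under the JeKo-1 label and below it in Granta-519. The log2 change was 0.56 ± 0.06 under the JeKo-1 label and -0.25 ± 0.06 in Granta-519 (edgeR quasi-likelihood, Benjamini-Hochberg adjusted p = 2.58e-13 and 0.000546).

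BCL2L2, the least abundant member in counts, encodes BCL-W, best known for its role in spermatogenesis in mice. It had 13.2, 14.8 and 13.4 CPM in chidamide libraries labelled JeKo-1, against 13.9, 13.6 and 13.5 CPM in vehicle. In Granta-519 it had 5.07, 5.29 and 5.69 CPM with chidamide, against 11.0, 10.2 and 10.2 CPM with vehicle. The groups overlapped under the JeKo-1 label and lay far apart in Granta-519. The log2 change of 0.01 ± 0.11 under the JeKo-1 label did not pass (edgeR quasi-likelihood, Benjamini-Hochberg adjusted p = 0.997), and its approximate interval of -0.21 to 0.22 does not show that the level stayed the same. In Granta-519 the gene fell by 0.97 ± 0.13 on the log2 scale, a 1.95-fold lower level (adjusted p = 4.41e-09). The gene overlaps the read-through gene BCL2L2-PABPN1, which was listed at 0 counts in every library. PABPN1, the downstream partner, fell by 0.71 on the log2 scale under the JeKo-1 label and by 0.56 in Granta-519 (edgeR quasi-likelihood, Benjamini-Hochberg adjusted p = 9.83e-05 and 0.0114). The Granta-519 fall of PABPN1 did not pass without chidamide replicate 3 (adjusted p = 0.0891) or without vehicle replicate 1 (0.0531). The handling of reads shared by these genes is not stated in the sources used here. Annotated transcripts that overlap BCL2 (LOC124904379) and BCL2L1 (BCL2L1-AS1 and LOC124904883) are no rows of the table, and the strand setting of the counting was likewise not given.

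The number of members called is to be read against a background in which most tested genes changed. The same holds for groups of libraries that did not overlap. Under the JeKo-1 label 4 of 5 members rose and 0 fell, where 66.4% of all tested genes were called in either direction, 35.3% as higher and 31.1% as lower. In Granta-519 3 members rose and 2 fell, where 70.9% were called, 39.6% as higher and 31.3% as lower. The median log2 change of the members was 0.56 under the JeKo-1 label and 0.15 in Granta-519, beside 0.04 and 0.08 over all tested genes. A stricter rule required a change beyond 1.5-fold (edgeR's glmTreat), which called 24.5% of all tested genes under the JeKo-1 label and 26.1% in Granta-519. It called 2 members under the JeKo-1 label, BCL2 and BCL2A1, and 1 in Granta-519, BCL2L2. In size, 18.4% of tested genes changed more than BCL2A1 under the JeKo-1 label and 22.3% changed more than BCL2L2 in Granta-519.

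**Figure D2:**
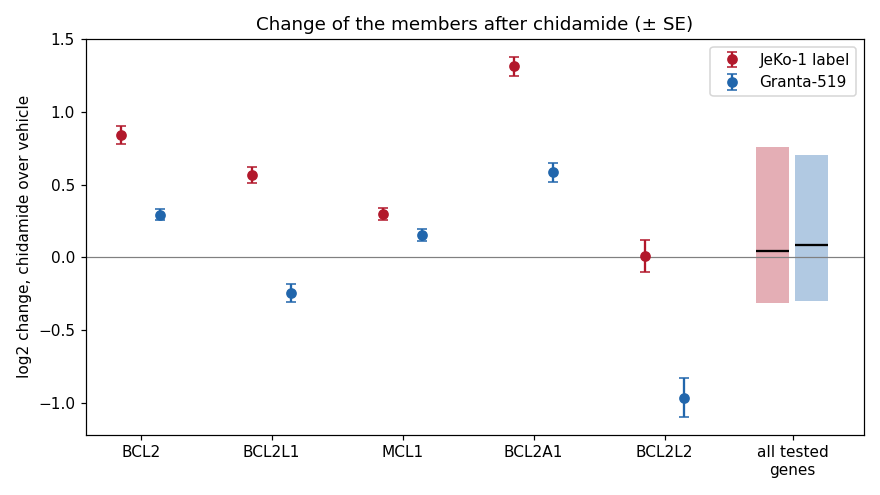
Log2 change with chidamide over vehicle of each member, with its SE, for the JeKo-1 label and Granta-519. At the right, bands span the interquartile range of all tested genes and black lines their medians of 0.04 and 0.08; every member lies higher for the JeKo-1 label, and BCL2L1 and BCL2L2 lie below 0 in Granta-519.

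Whether the response itself differed between the lines was tested as an interaction. All 5 members had a more positive chidamide effect under the JeKo-1 label than in Granta-519, where 39.5% of all tested genes differed, 20% in that direction and 19.5% in the other. The difference in log2 change was 0.97 ± 0.17 for BCL2L2, 0.81 ± 0.08 for BCL2L1, 0.73 ± 0.09 for BCL2A1, 0.55 ± 0.07 for BCL2 and 0.14 ± 0.06 for MCL1. By edgeR's quasi-likelihood test with Benjamini-Hochberg adjustment the p was 5.24e-06, 1.05e-11, 2.30e-09, 1.47e-08 and 0.0368 in the same order. The difference for MCL1 was lost when any 1 of 8 of the 12 libraries was left out (log2 difference 0.10 to 0.16 over the 12 fits, adjusted p at most 0.143). Those libraries were chidamide replicates 1 and 2 and vehicle replicate 2 of the JeKo-1 label, and chidamide replicates 1, 2 and 3 and vehicle replicates 2 and 3 of Granta-519. Beyond 1.5-fold, only the differences of BCL2L1 and BCL2L2 passed among the members (glmTreat adjusted p = 0.0164 and 0.0448), where 7.63% of all tested genes did. Scaling by library totals alone moved the median difference of all tested genes up by 0.13, and omitting the count filter moved it up by 0.16. Each member's difference except that of MCL1 was larger than both shifts.

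The lines also differed before any drug was given. In vehicle all 5 members differed between the JeKo-1 label and Granta-519, where 79.8% of all tested genes did, 35.5% as higher and 44.3% as lower under the JeKo-1 label. BCL2 averaged 23.5 ± 0.612 CPM under the JeKo-1 label and 595 ± 9.37 CPM in Granta-519 (SD, n = 3 each), a log2 difference of -4.66 ± 0.05 (SE). BCL2A1 was lower under the JeKo-1 label as well (-0.60 ± 0.07), whereas BCL2L1 (0.70 ± 0.06), BCL2L2 (0.39 ± 0.11) and MCL1 (0.33 ± 0.04) were higher there. The highest of the 5 adjusted p-values was 0.00173, for BCL2L2 (edgeR quasi-likelihood, Benjamini-Hochberg). For BCL2, 12.3% of tested genes had a larger difference between the lines, and for the other 4 members at least 52.1% did.

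With chidamide on both sides, BCL2 was still the member with the widest gap (42.0 ± 1.32 CPM under the JeKo-1 label and 729 ± 39.5 CPM in Granta-519, SD, n = 3 each), 17.3-fold higher in Granta-519. The log2 difference of the JeKo-1 label from Granta-519 was 1.52 ± 0.06 for BCL2L1, 1.36 ± 0.13 for BCL2L2 and 0.47 ± 0.04 for MCL1. For BCL2A1 it was 0.13 ± 0.06, so that this gene, lower under the JeKo-1 label in vehicle, had the higher mean there with chidamide. That last difference had an adjusted p of 0.0403 (edgeR quasi-likelihood, Benjamini-Hochberg), and 73.0 CPM in the lowest library labelled JeKo-1 lay just above 72.6 CPM in the highest Granta-519 library. It was lost under 3 of the other settings (0.10 to 0.11, adjusted p of 0.0841 to 0.136) and when any 1 of 5 of its 6 libraries was left out: each of the 6 except chidamide replicate 3 of the JeKo-1 label (log2 difference 0.08 to 0.16, adjusted p at most 0.278). In chidamide 81.7% of all tested genes differed between the lines, 36.4% as higher and 45.3% as lower under the JeKo-1 label, beside 4 members higher and 1 lower.

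The order of the 4 groups by level was as follows for each gene. The share of all tested genes without overlap between groups is not given here, so the order is a description only. BCL2 ran, from high to low, Granta-519 chidamide, Granta-519 vehicle, JeKo-1 label chidamide, JeKo-1 label vehicle, with no overlap between neighbours. BCL2L1 ran JeKo-1 label chidamide, JeKo-1 label vehicle, Granta-519 vehicle, Granta-519 chidamide, again with no overlap. MCL1 ran JeKo-1 label chidamide, JeKo-1 label vehicle, Granta-519 chidamide, Granta-519 vehicle, also without overlap. For BCL2A1 the chidamide groups stood at the top and adjoined each other, followed by Granta-519 vehicle and JeKo-1 label vehicle. For BCL2L2 the groups of the JeKo-1 label overlapped at the top, above Granta-519 vehicle and then Granta-519 chidamide.

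To compare members with each other, a level per transcript length is needed. The authors' second table holds such a length-scaled score, the count divided by a constant of each gene and by the library total. Summed over the 5 members, the score was 43.9 ± 1.19 in chidamide libraries labelled JeKo-1 and 25.2 ± 0.858 in vehicle, and 50.9 ± 1.63 in Granta-519 with chidamide and 41.9 ± 0.300 with vehicle (SD, n = 3 each). The sum was 1.74-fold higher with chidamide under the JeKo-1 label and 1.22-fold higher in Granta-519. On this scale, which has no TMM scaling, the median log2 change of all tested genes under the JeKo-1 label stood 0.12 higher than on the TMM scale at a pseudocount of 0.01 and 0.05 higher at 0.1. Gene by gene, the median shift was 0.13 and 0.12 at these pseudocounts.

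Different genes led the sum in the 2 lines. MCL1 led under the JeKo-1 label with 41.3% ± 0.808 of the summed score in chidamide and 53.3% ± 1.28 in vehicle, and BCL2A1 came second with 38.1% ± 0.913 and 24.3% ± 1.28. BCL2 held 2.61% ± 0.138 in chidamide and 2.31% ± 0.127 in vehicle there. In Granta-519 BCL2 led with 38.9% ± 0.999 in chidamide and 38.8% ± 0.283 in vehicle, so that its share moved by less than the spread of the libraries although its level rose. BCL2A1 held 30.0% ± 0.720 in Granta-519 with chidamide and 24.5% ± 0.311 with vehicle, and MCL1 25.6% ± 0.827 and 28.2% ± 0.208. BCL2L1 took 16.2% ± 0.392 in chidamide and 17.4% ± 1.08 in vehicle under the JeKo-1 label, and 4.89% ± 0.212 and 7.10% ± 0.411 in Granta-519. BCL2L2 took 1.73% ± 0.103 and 2.73% ± 0.0650 under the JeKo-1 label and 0.579% ± 0.0168 and 1.38% ± 0.0745 in Granta-519. All these shares are means ± SD over the 3 libraries of a group. Neighbours in the order did not overlap in score between libraries in any of the 4 groups.

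**Figure D3:**
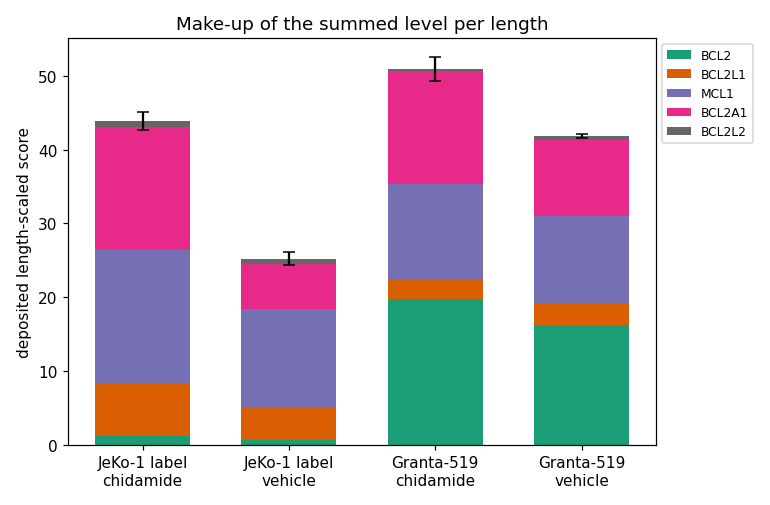
Sum of the length-scaled scores of the 5 members in each group, stacked by gene (mean of 3 libraries, error bar the SD of the sum). BCL2 makes up 2.61% and 2.31% of the bars of the JeKo-1 label and 38.9% and 38.8% of the Granta-519 bars, and the BCL2A1 segment is larger with chidamide in both lines.

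The origin of the constant is not given in the sources used here, and the order differs in 1 place between this scale and another that also divides by length. The constant came to 5.04 for BCL2, 5.90 for BCL2L1, 5.78 for MCL1, 4.59 for BCL2A1 and 5.15 for BCL2L2 per kb of the longest transcript in the GENCODE v29 annotation, where the median over 13689 genes was 5.03. With CPM per kb of that transcript, MCL1 (73.7 CPM per kb) stood above BCL2A1 (68.6 CPM per kb) in Granta-519 with chidamide, and the order in the other 3 groups was as by score.

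Promoter windows from RefSeq (GRCh38.p14, 250 bases before to 50 after an annotated start) were found for 3 of the 5 members, 4 windows in all. No window was found for MCL1, which also rose in both lines, or for BCL2L2. All lie on the minus strand and are printed 5′ to 3′ on that strand, with motif matches in capitals.
BCL2A1, chr15:79971147-79971446: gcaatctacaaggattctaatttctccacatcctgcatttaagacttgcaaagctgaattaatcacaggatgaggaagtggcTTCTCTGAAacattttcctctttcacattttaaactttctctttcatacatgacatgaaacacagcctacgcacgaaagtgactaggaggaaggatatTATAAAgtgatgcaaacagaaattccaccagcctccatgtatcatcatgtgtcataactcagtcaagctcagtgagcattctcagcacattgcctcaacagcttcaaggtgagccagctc
BCL2, chr18:63319720-63320019: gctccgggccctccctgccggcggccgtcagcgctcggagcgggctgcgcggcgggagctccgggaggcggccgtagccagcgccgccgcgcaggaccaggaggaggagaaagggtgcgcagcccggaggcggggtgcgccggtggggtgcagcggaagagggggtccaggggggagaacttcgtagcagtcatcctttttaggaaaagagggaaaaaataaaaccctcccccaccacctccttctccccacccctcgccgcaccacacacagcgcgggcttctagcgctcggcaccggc
BCL2L1, upstream start, chr20:31723914-31724213: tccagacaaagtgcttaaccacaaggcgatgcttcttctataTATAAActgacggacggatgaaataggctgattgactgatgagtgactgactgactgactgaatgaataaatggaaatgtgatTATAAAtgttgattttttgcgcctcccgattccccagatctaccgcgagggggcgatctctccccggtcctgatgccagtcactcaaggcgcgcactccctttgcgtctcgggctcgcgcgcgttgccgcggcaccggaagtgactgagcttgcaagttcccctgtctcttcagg
BCL2L1, downstream start, chr20:31722819-31723118: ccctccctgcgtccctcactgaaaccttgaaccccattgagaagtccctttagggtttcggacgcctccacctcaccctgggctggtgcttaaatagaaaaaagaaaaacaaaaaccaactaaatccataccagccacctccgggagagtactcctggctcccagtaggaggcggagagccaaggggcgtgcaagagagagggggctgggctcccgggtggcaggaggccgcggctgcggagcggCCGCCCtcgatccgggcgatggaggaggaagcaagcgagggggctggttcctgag
The motifs searched, on both strands, were the GC box GGGCGG, the E-box CACGTG, the cAMP response element TGACGTCA, the TATA box TATAAA, the STAT motif TTCNNNGAA and the NF-kB motif. The shares of all 35116 windows that hold them were 45%, 7.26%, 1.85%, 11.5%, 7.66% and 11.3% in that order.

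The windows differed in base composition, and 4 windows allow no more than a description. The BCL2A1 window, of the gene with the largest rise, had a GC content of 41.0% and 2 CpG, where the median of all windows was 58.7% and 14.0 CpG. It held 1 TATA match 70 bases before the start and 1 STAT match (TTCTCTGAA) 168 bases before it. The BCL2 window had a GC content of 70.7% with 31 CpG and none of the motifs. The windows of BCL2L1 had 52.0% with 20 CpG at the upstream start and 61.3% with 16 CpG at the downstream start. The upstream window held TATA matches 208 and 125 bases before its start, and the downstream window had 1 GC box in reverse (CCGCCC) 5 bases before its start. No NF-kB match was found in any of the 4 windows. A match is a string of letters and not a bound site, and the absence of a motif holds for these windows alone.

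The proapoptotic relatives of the family moved mostly downward where they are pore formers and in both directions where they are BH3-only. Under the JeKo-1 label all 3 pore formers fell, BAX by 1.06, BAK1 by 0.49 and BOK by 1.28 ± 0.33 on the log2 scale (adjusted p of BOK = 0.000555, edgeR quasi-likelihood with Benjamini-Hochberg). In Granta-519 BAX fell by 0.87 ± 0.06 (adjusted p = 1.08e-19) and BAK1 by 0.47, while BOK, at 0.276 CPM with chidamide and 0.521 CPM with vehicle, did not pass (log2 change -0.89). The list median was -1.06 under the JeKo-1 label and -0.87 in Granta-519, beside 0.04 and 0.08 over all tested genes. Called lower were 31.1% of all tested genes under the JeKo-1 label and 31.3% in Granta-519. BAK1, and BAX under the JeKo-1 label, were named after their values were seen, to complete a list of 3.

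Of the 8 BH3-only genes, which encode the ligands of the groove, 2 rose and 4 fell under the JeKo-1 label, and 5 rose and 3 fell in Granta-519. Over all tested genes 35.3% were called higher and 31.1% lower under the JeKo-1 label, and 39.6% and 31.3% in Granta-519. BMF, whose protein binds several members, rose by 1.92 ± 0.11 on the log2 scale under the JeKo-1 label (adjusted p = 6.02e-23, edgeR quasi-likelihood, Benjamini-Hochberg) and by 2.01 ± 0.09 in Granta-519 (9.03e-27). BAD, a partner of BCL2, BCL-XL and BCL-W, fell by 1.01 ± 0.12 under the JeKo-1 label (9.55e-11) and by 1.28 ± 0.12 in Granta-519 (1.67e-13). HRK rose in Granta-519, with a log2 change of 2.95 ± 0.47 (2.14e-07) that rests on 68 counts over the chidamide libraries and 9 over the vehicle libraries, and had 0.04 ± 0.19 under the JeKo-1 label, which did not pass. Named after their values were seen, PMAIP1 (NOXA, a partner of MCL1 and BCL2A1) rose by 0.98 and 0.87 on the log2 scale under the JeKo-1 label and in Granta-519. BCL2L11 (BIM) rose in Granta-519, to a mean of 144 CPM with chidamide against 67.2 CPM with vehicle, and under the JeKo-1 label had 142 CPM with chidamide and 143 CPM with vehicle, which did not pass. With upper-quartile scaling, library totals and the length-scaled score described above, this last change was positive and passed (log2 change 0.12 to 0.14, adjusted p at most 0.0299). The list median was -0.13 under the JeKo-1 label and 0.56 in Granta-519.

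**Figure D4:**
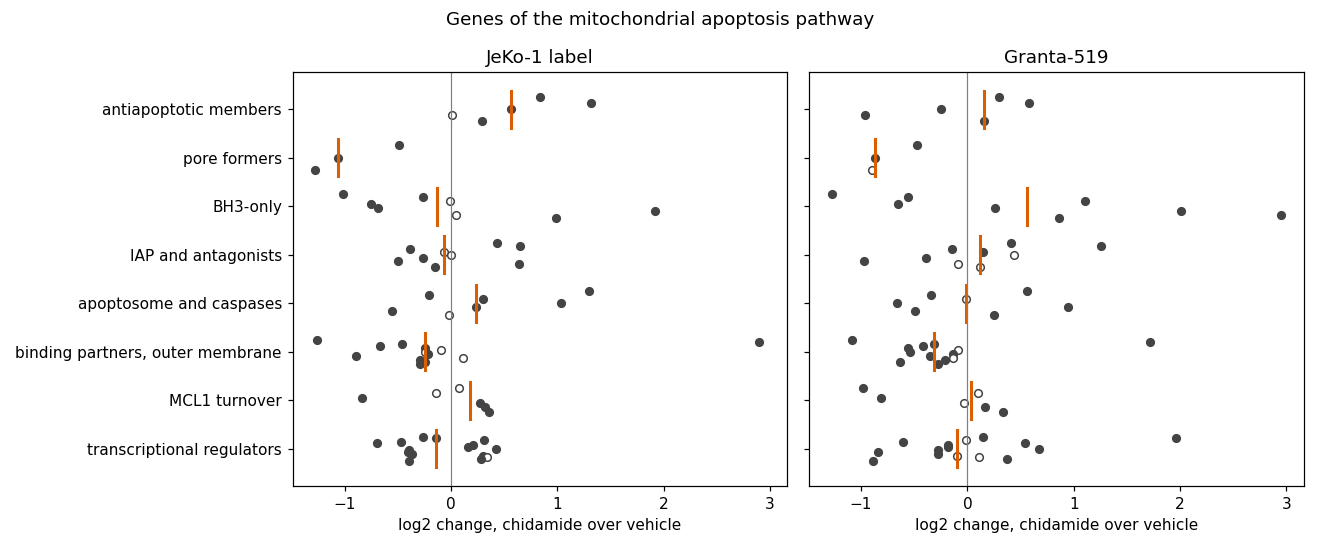
Log2 change with chidamide over vehicle for the genes of each list, one panel per line. Filled points passed the test, open points did not, and orange bars are list medians, which for the 5 members are 0.56 under the JeKo-1 label and 0.15 in Granta-519 and for the 3 pore formers -1.06 and -0.87.

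Further family members outside the classical 5 were BCL2L10, BCL2L12, BCL2L13, BCL2L14 and BCL2L15. Of the 3 that were tested, 0 rose and 2 fell under the JeKo-1 label, and 0 rose and 1 fell in Granta-519. The shares of all tested genes were 35.3% higher and 31.1% lower under the JeKo-1 label, and 39.6% and 31.3% in Granta-519. BCL2L12 fell by 0.87 ± 0.07 on the log2 scale under the JeKo-1 label and by 0.67 ± 0.07 in Granta-519 (edgeR quasi-likelihood, Benjamini-Hochberg adjusted p = 4.97e-16 and 6.84e-12). BCL2L13, named after its values were seen, fell by 0.20 ± 0.06 under the JeKo-1 label (adjusted p = 0.00273, edgeR quasi-likelihood, Benjamini-Hochberg) and had 0.11 ± 0.06 in Granta-519, which did not pass. The fall did not pass with upper-quartile scaling, library totals or the score (log2 change -0.07 to -0.06), and the Granta-519 value passed as a rise with RLE, upper-quartile scaling and DESeq2 (0.15 to 0.21). BCL2L10, a close relative of the antiapoptotic members, had 4 counts over the chidamide libraries and 5 over the vehicle libraries of the JeKo-1 label, and 7 and 2 in Granta-519, and was not tested.

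Downstream of the membrane, lists moved both ways. Background shares over all tested genes were 35.3% higher and 31.1% lower under the JeKo-1 label, and 39.6% and 31.3% in Granta-519. Of 7 genes of the apoptosome and the caspases, 4 rose and 2 fell under the JeKo-1 label, and 3 rose and 3 fell in Granta-519. APAF1, which assembles the apoptosome, rose by 1.30 ± 0.07 on the log2 scale under the JeKo-1 label (adjusted p = 2.09e-23), and CASP9, the caspase it activates, fell by 0.55 ± 0.10 there (3.78e-06). In Granta-519 APAF1 rose by 0.56 ± 0.06 (9.32e-12) and CASP9 fell by 0.49 ± 0.17 (0.00903). That fall of CASP9 did not pass without replicate 2 of either Granta-519 group (adjusted p = 0.0696 without chidamide replicate 2 and 0.0528 without vehicle replicate 2). CASP6, an executioner caspase, moved in opposite directions: it rose by 1.04 ± 0.15 under the JeKo-1 label (3.82e-08) and fell by 0.66 ± 0.11 in Granta-519 (2.46e-07). Of 9 inhibitors of apoptosis and their antagonists, 3 rose and 4 fell under the JeKo-1 label, and 3 rose and 3 fell in Granta-519. BIRC3, an NF-kB target that encodes cIAP2, rose by 0.65 ± 0.05 under the JeKo-1 label and by 1.25 ± 0.05 in Granta-519. HTRA2, a mitochondrial protease that antagonises these inhibitors, fell by 0.50 ± 0.08 and by 0.98 ± 0.09. All these changes are edgeR quasi-likelihood estimates with Benjamini-Hochberg adjustment, and the adjusted p of BIRC3 and HTRA2 was at most 7.36e-07.

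Of 13 genes for binding partners of the family and proteins of the outer mitochondrial membrane, 1 rose and 9 fell under the JeKo-1 label, and 1 rose and 10 fell in Granta-519, beside 31.1% and 31.3% of all tested genes called lower. The gene that rose was BAG3 in both lines, a co-chaperone that binds BCL2. It averaged 6.17 ± 0.574 CPM in chidamide libraries labelled JeKo-1 and 0.812 ± 0.189 CPM in vehicle, and 16.8 ± 0.578 CPM in Granta-519 with chidamide and 5.12 ± 0.506 CPM with vehicle (SD, n = 3 each). BAG1, another BCL2-binding co-chaperone, fell furthest in both, by 1.26 ± 0.05 on the log2 scale under the JeKo-1 label and by 1.08 ± 0.05 in Granta-519 (edgeR quasi-likelihood, Benjamini-Hochberg adjusted p = 6.33e-29 and 2.28e-25). The list median was -0.25 under the JeKo-1 label and -0.31 in Granta-519.

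Because the protein level of MCL1 is set largely by its breakdown, 6 genes of its turnover were examined. Of these, 3 rose and 1 fell under the JeKo-1 label, and 2 rose and 2 fell in Granta-519. Among all tested genes 35.3% were called higher and 31.1% lower under the JeKo-1 label, and 39.6% and 31.3% in Granta-519. USP9X, a deubiquitinase that stabilises MCL1, rose by 0.36 ± 0.04 on the log2 scale under the JeKo-1 label and by 0.34 ± 0.04 in Granta-519. GSK3A, a kinase of the pathway that marks MCL1 for breakdown, fell by 0.83 ± 0.05 under the JeKo-1 label and by 0.81 ± 0.05 in Granta-519. BTRC, a ubiquitin ligase subunit that recognises it, fell by 0.98 ± 0.10 in Granta-519. The adjusted p-values of these changes were at most 3.26e-10 (edgeR quasi-likelihood, Benjamini-Hochberg). Under the JeKo-1 label BTRC had a log2 change of 0.08 ± 0.09, which did not pass (adjusted p = 0.475) but did as a rise with upper-quartile scaling (0.22) and library totals (0.21). Named after their values were seen, 2 further genes of the list also rose. HUWE1, another ubiquitin ligase gene, rose by 0.32 ± 0.04 under the JeKo-1 label and by 0.17 ± 0.04 in Granta-519. GSK3B, a kinase gene related to GSK3A, rose by 0.28 ± 0.06 under the JeKo-1 label. In Granta-519 it had -0.04 ± 0.05, which did not pass. The ligase and kinase genes of the list thus moved in both directions. Protein was not measured.

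Of 16 transcriptional regulators known for members, 15 were tested. Under the JeKo-1 label 6 rose and 8 fell, and in Granta-519 5 rose and 7 fell. Shares over all tested genes were 35.3% higher and 31.1% lower under the JeKo-1 label, and 39.6% and 31.3% in Granta-519. REL, an NF-kB subunit that drives BCL2A1 and BCL2L1 in B cells, rose by 0.42 ± 0.05 on the log2 scale under the JeKo-1 label (adjusted p = 1.70e-10), the largest rise of the list there, and by 0.67 ± 0.05 in Granta-519 (1.23e-17). The NF-kB subunit genes RELA and RELB, named after their values were seen, fell in both lines. The remaining NF-kB subunit genes of the list rose under the JeKo-1 label and fell in Granta-519. RELA fell by 0.39 ± 0.05 under the JeKo-1 label and by 0.27 ± 0.06 in Granta-519, and RELB by 0.41 ± 0.05 and 0.84 ± 0.05, with adjusted p of at most 2.79e-05. BCL6, a repressor of germinal-centre B cells, rose by 1.97 ± 0.07 in Granta-519 (2.59e-32) and had -0.14 ± 0.05 under the JeKo-1 label (0.00601). That last change had the opposite sign with upper-quartile scaling (0.0074) and did not pass with library totals, no filter or the score, or without chidamide replicate 2 or vehicle replicate 1. All these tests were edgeR's quasi-likelihood test with Benjamini-Hochberg adjustment. MYC, which the series title names, had 196, 206 and 206 CPM in chidamide libraries labelled JeKo-1, against 325, 339 and 323 CPM in vehicle. It had 122, 128 and 121 CPM in Granta-519 with chidamide, against 83.9, 85.1 and 86.0 CPM with vehicle. MYC therefore fell under the JeKo-1 label, by 0.70 ± 0.04 on the log2 scale, and rose in Granta-519, by 0.54, whereas BCL2 rose in both.

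The genes most like each member over the 12 libraries were found by the root-mean-square difference of log2 CPM centred on each gene's mean. For BCL2 they were CAMK1D (0.18), GNA15 (0.21) and C8orf88 (0.22), where the median over all tested genes was 2.19. For BCL2L1 they were CAT, which encodes catalase (0.08), GLIDR (0.12) and USP33 (0.13), with a median of 0.79. For MCL1 they were AGFG1 (0.04), HDAC2 (0.05), which encodes a deacetylase that chidamide inhibits, and MKLN1 (0.06), with a median of 0.57. For BCL2A1 they were AMPD3 (0.08), STARD4 (0.10) and DMXL1 (0.10), with a median of 0.78. For BCL2L2 they were VPS50, UHRF1BP1L and FAHD1 (0.13 each), with a median of 0.75. None of these 15 genes is a member, and between members the closest were BCL2L1 and BCL2L2 at 0.35 and the farthest BCL2 and BCL2L1 at 2.75. The measure follows both the gap between lines and the drug, and a low value shows a like pattern and no more. CAT, GLIDR and USP33 had log2 changes with chidamide of -0.13, -0.10 and 0.06 in Granta-519, against -0.25 for BCL2L1. Log2 CPM here held a prior count of 2, which shrinks differences at low counts. C8orf88 had the same value (-2.65) in all 3 vehicle libraries of the JeKo-1 label, a floor set by that prior count. In the edgeR fit the log2 gap between lines in vehicle was -8.60 for C8orf88 and -5.72 for GNA15, against -4.66 for BCL2. C8orf88 and GNA15 rose by 3.47 and 1.66 with chidamide under the JeKo-1 label, against 0.84 for BCL2. Their nearness to BCL2 rests partly on the prior count.

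**Figure D5:**
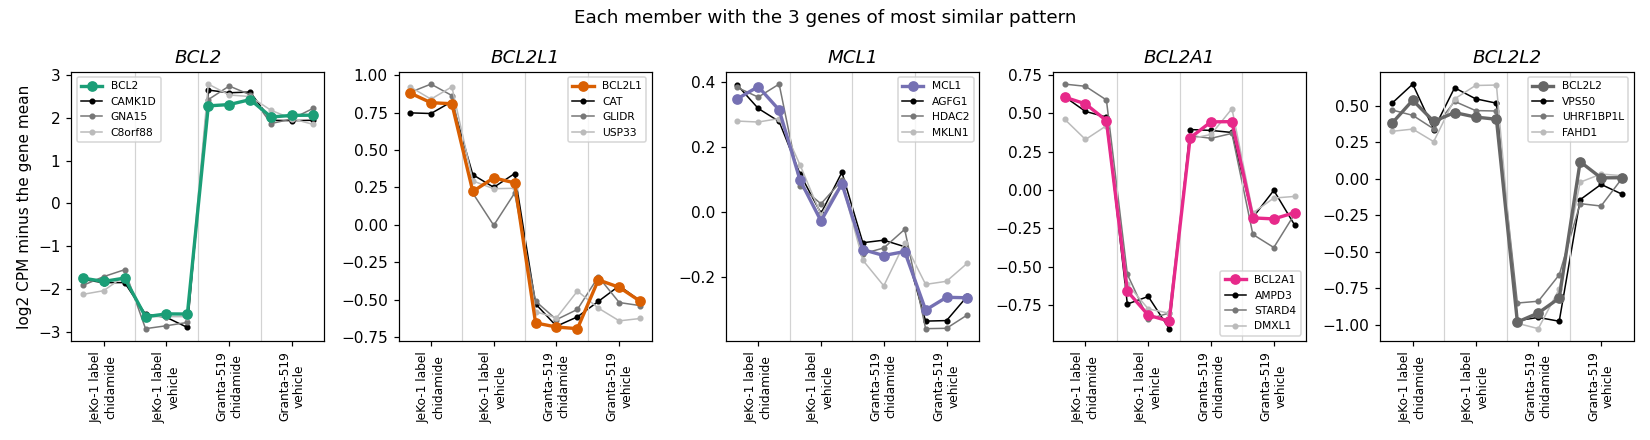
Log2 CPM minus the gene's own mean in each of the 12 libraries, in groups of 3 from left to right, for each member (thick line) and the 3 genes nearest to it (thin lines). The nearest genes differ from their member by a root-mean-square of 0.04 for AGFG1 beside MCL1 up to 0.22 for C8orf88 beside BCL2.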

How the data were processed

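Polyadenylated RNA of 12 libraries was measured, and the library titles gave the groups. The authors deposited a table of counts with a row for each gene symbol. STAR and the hg19 build are named for alignment, per the submitters' processing notes; versions, counter, annotation and strandedness are not given in the sources used here. The authors also deposited a second table, treated here as a length-scaled score because its columns summed to 81790 to 84121. It served for levels between genes and as an alternative input.

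The test of counts was that of edgeR 4.0.16 (R 4.3.3): filterByExpr by group, TMM factors (0.928 to 1.03), robust glmQLFit with 4 group means (8 residual degrees of freedom, common coefficient of variation 0.0422) and glmQLFTest. P-values were two-sided and adjusted by Benjamini-Hochberg over 15087 genes with a threshold of 0.05. The 5 comparisons set chidamide against vehicle within each line, these effects against each other, and the lines against each other in vehicle and in chidamide. Comparisons share libraries. The SE is approximate, back-calculated from the log2 change and F; intervals are normal ones from that SE. The script was tested on simulated counts. Replicates of a group differed by a chi-square of 1.62 to 5.39 per gene, so none was merged. Alternatives were RLE, upper-quartile and library-total scaling, no count filter, DESeq2 1.42.0, the score with limma 3.58.1 (pseudocounts 0.01 and 0.1), fewer groups in the fit, a replicate block and leaving out each library. CPM per kb was added after seeing the data.

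Named genes were the members, the largest rise and fall per list and line among genes that passed, the 3 genes nearest each member in pattern, overlapping genes, BCL2L10, BCL2L12, SOX11, CCND1 and MYC; a few genes that this rule or the marker lists hold are not reported here. The members and lists were chosen with earlier results of these data known. Protein sequences were not used here.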

Additional observations from a re-analysis of the deposited data

Results flagged for a closer look

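The chidamide effect differed between the lines, by the interaction term of the same edgeR fit, for the 5 members and for 13 of the 25 other pathway genes named here in a drug comparison, where 39.5% of all tested genes differed. Those 25 were picked by their drug effects, most of them as the largest rise or fall of a list, so their share is a selected one. HUWE1 and GSK3B are not counted among the 25. Each value is the log2 change under the JeKo-1 label minus that in Granta-519. The members had 0.97 (BCL2L2), 0.81 (BCL2L1), 0.73 (BCL2A1), 0.55 (BCL2) and 0.14 (MCL1), the last of which was lost on leaving out 1 of 8 libraries. Among the caspase and apoptosome genes the value was 1.70 for CASP6 and 0.74 for APAF1. It was -2.91 for HRK, which had 9 counts over the Granta-519 vehicle libraries, -1.11 for BCL2L11, -0.31 for BCL2L13, and 1.18 for BAG3, a gene that rose in both lines. The inhibitor gene BIRC3 had -0.60, its antagonist HTRA2 0.48, and the ligase gene BTRC 1.06. Among the regulators the value was -2.10 for BCL6, -1.24 for MYC, -0.25 for REL and 0.43 for RELB. The adjusted p-values (edgeR quasi-likelihood, Benjamini-Hochberg) were highest for MCL1, at 0.0368, and next for REL, at 0.00397. The differences of REL and BCL2L13 did not pass with library totals, no filter or the score (adjusted p of 0.0784 to 0.422).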

How the results depend on the processing

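Over the alternatives, 381 of 400 member values and 996 of 1039 values of other named genes kept their direction and their side of the threshold, and 157 of 160 counts of called genes stayed within 1.5 times. HUWE1 and GSK3B are not among these other named genes. The exceptions among members were BCL2L2 under the JeKo-1 label, with log2 changes of -0.029 to 0.048 when 1 library was left out and adjusted p of 0.128 to 1 over all settings; MCL1 in Granta-519 with no count filter, at 0.044; the difference of MCL1 between lines, at 0.10 to 0.16 when 1 library was left out; and BCL2A1 between the lines in chidamide, at 0.10 with RLE, 0.11 with upper-quartile scaling, 0.10 with DESeq2 and 0.080 to 0.16 when 1 library was left out. Of the other named genes' values, 28 crossed the threshold with their sign kept, all of them of BCL2L13, BCL6, BTRC, BOK, CASP9, PABPN1 and REL, and 15 changed sign, all under the JeKo-1 label. These were BCL2L11 (0.026 with RLE and DESeq2, 0.14 with upper-quartile scaling, 0.12 with library totals, 0.044 with no filter, 0.016 with only the groups compared, 0.13 and 0.12 with the score, -0.026 to 0.035 when 1 library was left out), HRK (-0.13 to 0.25 when 1 library was left out) and BCL6 (0.0074 with upper-quartile scaling). Among those that changed sign, BCL2L11 with upper-quartile scaling, library totals and the score also crossed the threshold, as did BCL6 with upper-quartile scaling. For the difference between lines, library totals called 1918 genes more negative, and no filter called 4669 more positive and 1733 more negative, against 3015 and 2941. The cause was not tested.

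The share of calls that were higher was 53.1% under the JeKo-1 label, and became 64.9% with upper-quartile scaling, 63.6% with library totals, and 64.3% and 63.1% with the score. In Granta-519 it was 55.8%, and became 64.0% with upper-quartile scaling, 49.9% with no filter and 49.3% with only the groups compared. For the difference between lines it was 50.6%, and became 70.0% with library totals, 72.9% with no filter and 63.4% with the score at a pseudocount of 0.01. All-gene medians shifted by 0.15 and 0.13 under the JeKo-1 label with upper-quartile scaling and library totals, and by -0.14 and -0.13 between the lines in vehicle with library totals and the score at a pseudocount of 0.01. On plain CPM, which ignores length, ranks became 2 for BCL2L1 and 3 for BCL2A1 under the JeKo-1 label in both treatments, 4 for BCL2 and 5 for BCL2L2 there in vehicle, and 2 for MCL1 and 3 for BCL2A1 in Granta-519 with chidamide, as also per kb.

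In their deviations from group means, same-numbered replicates correlated at -0.0256 to 0.0346 and differently numbered ones at -0.0337 to 0.0351. No pairing by number was seen, but such a check cannot show that none exists. With the replicate number as a block no member call changed (BCL2 0.84 and 0.29, BCL2A1 1.32 and 0.58, difference of MCL1 0.14), and genes higher and lower under the JeKo-1 label were 5367 and 4776. Depth limits BCL2L2 most, with 74 to 224 counts per library.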
